A study of Zea mays with 24 samples.

Results

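Transcripts of 5 maize genes were chosen because their low N changes were among the largest on the array, and their levels were followed through low nitrogen, low temperature and low phosphorus stress. The genes are represented by 5 of the 41780 transcript probes, one probe each. They are 2 genes annotated as chaperone, heat shock protein, homeodomain-like (OptiV1C03333 of GRMZM2G049378 and OptiV1S22597 of GRMZM2G121753), a peroxidase superfamily protein (OptiV1C10502 of GRMZM2G095404), a starch-binding protein (OptiV1C11631 of GRMZM2G018820) and a gene of unknown function (OptiV1C11040 of GRMZM2G165914). All 5 were among the 31507 probes that were tested, which had to exceed the background clearly in every replicate of 1 or more of the 6 groups. RefSeq listed 4 of the 5 loci under current symbols: LOC100281900, also called MYBR115, for GRMZM2G049378, LOC103651394 for GRMZM2G121753, LOC100191217 for the peroxidase and LOC100191201 for the starch-binding protein. GRMZM2G165914 had no match in that table.

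The 24 samples were source leaf laminae of the inbred line B73, 4 biological replicates for each of 6 groups, each hybridized to its own one-colour Agilent array. Low T plants had nights of 4 °C and control T plants nights of 20 °C, both with days of 28 °C and full nutrient solution, and the fifth leaf was taken at day 20 after germination. Low N plants received 0.15 mM KNO3 and control N plants 15 mM KNO3, both with 0.5 mM KH2PO4. Low P plants received 0.1 mM KH2PO4 and control P plants 0.5 mM KH2PO4, both with 15 mM KNO3. Low N, control N, low P and control P plants all had days of 28 °C and nights of 20 °C. In both nutrient experiments the sixth leaf was taken at day 30, so that the low T experiment differed from them in leaf and age as well as in growth chamber, and control levels of different experiments cannot be told apart by any 1 of these. Levels are given as the log2 signal minus the 75th percentile of the array, so that 0 is that percentile, and a level is comparable between arrays for the same probe only. In whole leaves, fewer cells of a type and less RNA per cell cannot be told apart.

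Nitrate is reduced in leaves by nitrate reductase and nitrite reductase, and when nitrogen is short, leaves commonly store more of their fixed carbon as starch in the chloroplast. Starch-binding proteins carry a domain that attaches to starch granules or glucan chains. Plant peroxidases of the secreted class use hydrogen peroxide to oxidize phenolic compounds and take part in stiffening the cell wall. Homeodomain-like domains are helix-turn-helix folds that bind DNA, and MYB-related regulators carry such a fold.

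The arrays had 25780 to 36966 probes well above background and 0 to 2 saturated spots. All 19 entries of the study's C4 carbon shuttle list were well above background on all 24 arrays. That list holds enzymes and metabolite transporters, names probe OptiV1S18390 more than once and includes a malic enzyme annotated as non-photosynthetic. Low T and control T replicates 1 and 2 lay on one slide and replicates 3 and 4 on another. All low P arrays lay on one slide and all control P arrays on another, so the slide and the low P treatment cannot be told apart. Low T and low N plants had each been raised as 2 sets, one after the other, and the labels do not assign samples to sets. None of the 5 probes was saturated or flagged as an outlier on any array.

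The low N change is the measure by which the genes were chosen, and it is given as a description. Across the 31507 probes, 2.68% were called higher and 3.14% lower in low N leaves, with a call standing for a change over 2-fold and an adjusted p under 0.05. Nothing is read from the 5 genes against those shares. The low N arrays were spread over several slides, and on the only slide that held both groups (low N replicates 3 and 4, control N replicate 3) the differences were 4.91 and 4.37 for the 2 homeodomain-like genes, 4.25 for the peroxidase, -7.39 for the starch-binding protein and -4.60 for GRMZM2G165914. The changes in low T and low P leaves were not used to choose them. In low T leaves 1 of the 5 was called higher, against 7.25% of all probes, and 1 was called lower, against 7.11%. In low P leaves 1 was called higher, against 8.22%, and 1 lower, against 3.01%. The peroxidase was the gene called higher in both, the starch-binding protein was lower in low T leaves, and the gene of unknown function was lower in low P leaves.

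**Figure D1:**
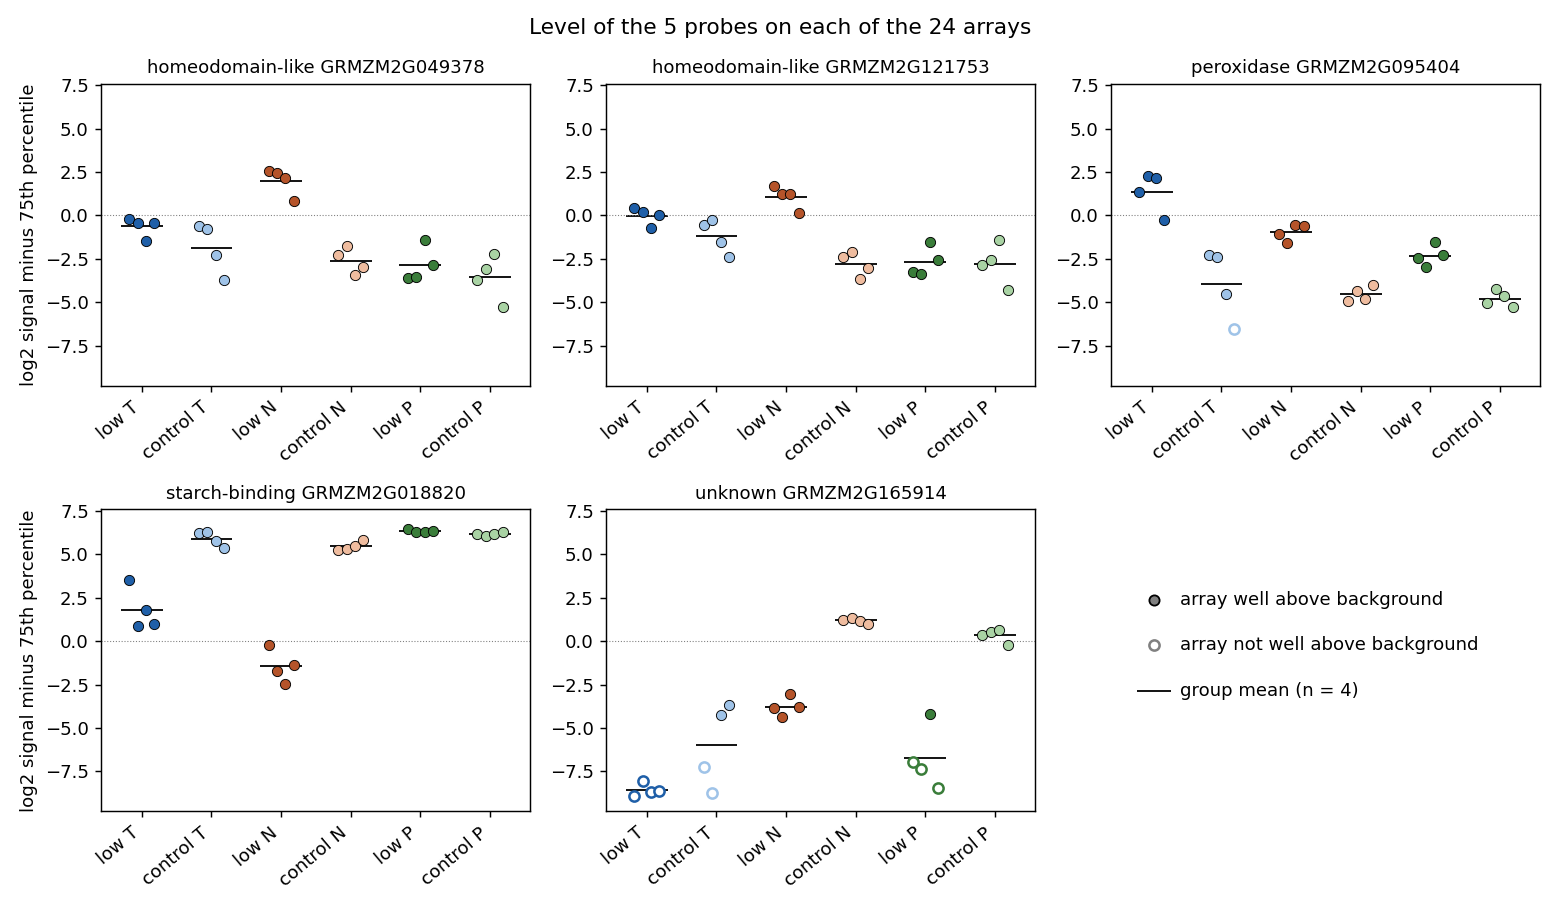
Level of each of the 5 probes on each of the 24 arrays (log2 signal minus the 75th percentile of the array, y axis) in the 6 groups (x axis, n = 4 arrays each). Open points are arrays on which the probe was not well above background and black bars are group means. The starch-binding protein lies between 5.23 and 6.49 in every group except low N and low T.

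The transcript of the starch-binding protein was far lower in low N leaves than in their controls. Its levels were -0.22, -1.70, -2.46 and -1.35 in the 4 low N samples, against 5.23, 5.32, 5.48 and 5.84 in the 4 control N samples. The highest low N sample was far below the lowest control N sample, and the difference of the means was -6.90, a 119-fold lower level. Before scaling, the signals were 152 to 948 in low N samples and 29772 to 45410 in control N samples.

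In low T leaves the same transcript fell as well. Its levels were 3.51, 0.90, 1.80 and 0.99 in low T samples, against 6.22, 6.28, 5.79 and 5.39 in control T samples, with no overlap. The change was -4.12 ± 0.56 (SE, n = 4 each), a 17.4-fold decrease, with an adjusted p of 0.00146. It was -4.05 on the slide of replicates 1 and 2 and -4.19 on the slide of replicates 3 and 4, so both slides gave nearly the same size. Low T replicate 1 was the least reduced sample, and without it the change was -4.69.

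The decrease was not seen in low P leaves. The low P samples had 6.49, 6.32, 6.30 and 6.35, against 6.17, 6.08, 6.20 and 6.29 in control P samples. Although the groups did not overlap, the difference was 0.18 on the log2 scale (95% interval -0.01 to 0.37, adjusted p = 0.110), far below the 2-fold limit. Before scaling, the signals were 65123 to 79997 in low P samples and 51286 to 61676 in control P samples. Whether a rise is compressed at signals this high was not tested. The low P change exceeded the low T change by 4.30 ± 0.60 (SE, adjusted p = 7.31e-05), a difference between stresses that 42.1% of all probes also passed at an adjusted p under 0.05. In order of level, low P and control P came first, then control T, control N, low T and low N, and neighbours overlapped only from control P to control N.

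**Figure D2:**
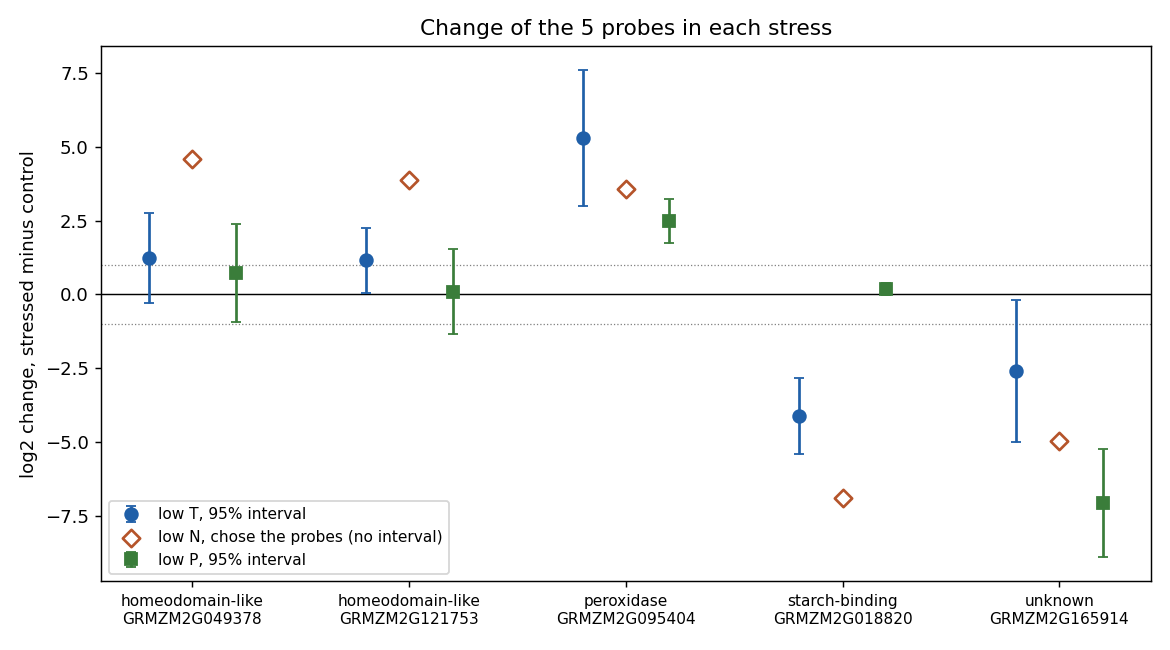
Log2 change of the 5 probes (y axis, stressed minus control) in low T, low N and low P leaves, with 95% intervals from limma for low T and low P (n = 4 against 4). Dotted lines mark a 2-fold change. The peroxidase lies above the upper line in all 3 stresses, and the starch-binding protein is at -4.12 in low T, -6.90 in low N and 0.18 in low P.

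The peroxidase was the only one of the 5 genes with a called change in the same direction in low T and low P leaves. In low N samples it had levels of -1.08, -1.58, -0.53 and -0.60, against -4.93, -4.37, -4.81 and -3.98 in control N samples, a difference of 3.58 or 11.9-fold. Every low N sample was above every control N sample.

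The peroxidase transcript also rose in low T leaves. Low T samples had 1.36, 2.25, 2.14 and -0.26, against -2.27, -2.39, -4.51 and -6.54 in control T samples. The control T samples spread over more than 4 units, and replicate 4 was not well above background. The change was 5.30 ± 1.00 (SE, adjusted p = 0.00583), a 39.4-fold increase. With control T replicate 4 set no lower than the weakest signal well above background on that array, the increase was 36.8-fold on this scale. That weakest signal need not be the detection limit of this probe. The log2 change was 4.14 on the slide of replicates 1 and 2 and 6.46 on that of replicates 3 and 4. It was 4.43 without control T replicate 4 and 3.53 with the normexp background correction (adjusted p = 0.0142).

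In low P leaves the peroxidase had -2.47, -2.97, -1.54 and -2.25, against -5.02, -4.23, -4.64 and -5.25 in control P samples. The groups did not overlap, and the increase was 2.48 ± 0.33 (SE, adjusted p = 0.000747), or 5.57-fold. This call depended on how the background was treated: with normexp the low P change was 0.72 (adjusted p = 0.359). The low P change minus the low T change was -2.82 ± 1.13 (SE, adjusted p = 0.057), which did not pass, and with the replicate number as a block the same difference had an adjusted p of 0.0131. Low T leaves held the highest level, with no overlap with low N, whereas low N, low P and the 3 control groups overlapped one with the next.

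The gene of unknown function, GRMZM2G165914, was lower in low N and low P leaves. Its low N levels were -3.87, -4.37, -3.03 and -3.81, against 1.25, 1.34, 1.18 and 1.01 in control N samples, a difference of -4.97 or 31.3-fold. All 8 of these arrays were well above background and the groups lay far apart.

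In low P leaves the transcript was near the limit of detection. Low P samples had -6.96, -7.34, -4.18 and -8.44, against 0.37, 0.55, 0.63 and -0.20 in control P samples. Only low P replicate 3 was well above background, whereas all 4 control P arrays were. The fitted change was -7.07 ± 0.80 (SE, adjusted p = 0.000371), but 3 of the 4 low P levels behind it were not measured above background. With each low P array set no lower than its weakest signal well above background, the decrease was 54.1-fold on this scale. That weakest signal need not be the detection limit of this probe, so the value is not a strict bound. Without low P replicate 3 the fitted change was -7.92, and with normexp it was -3.88.

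In the low T experiment this gene was at or near background. Its levels were -8.90, -8.03, -8.67 and -8.61 in low T samples, none of them well above background, against -7.25, -8.72, -4.24 and -3.66 in control T samples, of which only replicates 3 and 4 were well above background. The change of -2.58 ± 1.05 (SE, adjusted p = 0.0949) did not pass and the groups overlapped. With 6 of the 8 arrays not well above background, its size is not a measured one, and with normexp it was -0.66 (adjusted p = 0.624). On the slide of replicates 1 and 2 the change was -0.48 and on the slide of replicates 3 and 4 it was -4.69. With the slide as a block the adjusted p was 0.0452, so whether the gene is called in low T leaves depended on the design.

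Control T leaves had a mean of -5.97 for this transcript, far from the mean of 1.20 in control N and of 0.34 in control P leaves, and the control T range did not touch either of the others. In order of level, control N, control P and low N lay apart from each other, whereas low N, control T, low P and low T overlapped one with the next. The low P change was below the low T change by 4.48 (the difference was -4.48 ± 1.41, SE, adjusted p = 0.0196). Only 0 of 4 low T, 2 of 4 control T and 1 of 4 low P arrays were well above background, so that difference rests largely on unmeasured levels. Control T leaves were already at or near background, so a low T decrease of the low P size could not be measured. The difference did not pass without replicate number 1 of both experiments (adjusted p = 0.119) or without replicate number 2 (adjusted p = 0.138).

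The 2 homeodomain-like genes had their highest mean levels in low N leaves. GRMZM2G049378 had 2.55, 2.43, 2.14 and 0.82 in low N samples, against -2.26, -1.78, -3.44 and -2.98 in control N samples. GRMZM2G121753 had 1.71, 1.25, 1.26 and 0.14 in low N samples, against -2.40, -2.10, -3.67 and -3.05 in control N samples. For both, the groups lay apart, with differences of 4.60 (24.2-fold) and 3.89 (14.9-fold), and low N replicate 4 was the lowest low N sample. The low N range lay above that of low T, the next group in order, for GRMZM2G049378 and overlapped it for GRMZM2G121753, and every later neighbour in the order overlapped.

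Neither gene was called in the other stresses. GRMZM2G049378 had -0.18, -0.42, -1.44 and -0.41 in low T samples, against -0.62, -0.79, -2.26 and -3.72 in control T samples, and the change was 1.23 (95% interval -0.30 to 2.77, adjusted p = 0.192). GRMZM2G121753 had 0.42, 0.17, -0.69 and 0.00 in low T samples, against -0.53, -0.24, -1.50 and -2.41 in control T samples, with a change of 1.15 (95% interval 0.05 to 2.24, adjusted p = 0.102). Both groups overlapped for both genes, and control T replicate 4 was the lowest sample of each. With the slide as a block the adjusted p for GRMZM2G121753 was 0.0183, and for GRMZM2G049378 it was 0.0664. Without control T replicate 4 the low T change of GRMZM2G049378 was 0.61.

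In low P leaves GRMZM2G049378 had -3.61, -3.54, -1.40 and -2.82, against -3.72, -3.07, -2.20 and -5.30 in control P samples. GRMZM2G121753 had -3.27, -3.39, -1.54 and -2.58, against -2.85, -2.57, -1.43 and -4.31 in control P samples. The changes were 0.73 (95% interval -0.93 to 2.38, adjusted p = 0.446) and 0.09 (95% interval -1.36 to 1.55, adjusted p = 0.918), and neither interval excludes a 2-fold change. Low P replicate 3 was the highest low P sample for both genes, and control P replicate 4 the lowest control P sample. The differences between the low P and the low T change did not pass either, at -0.51 (95% interval -2.75 to 1.73, adjusted p = 0.722) and -1.05 (95% interval -2.85 to 0.74, adjusted p = 0.333).

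**Figure D3:**
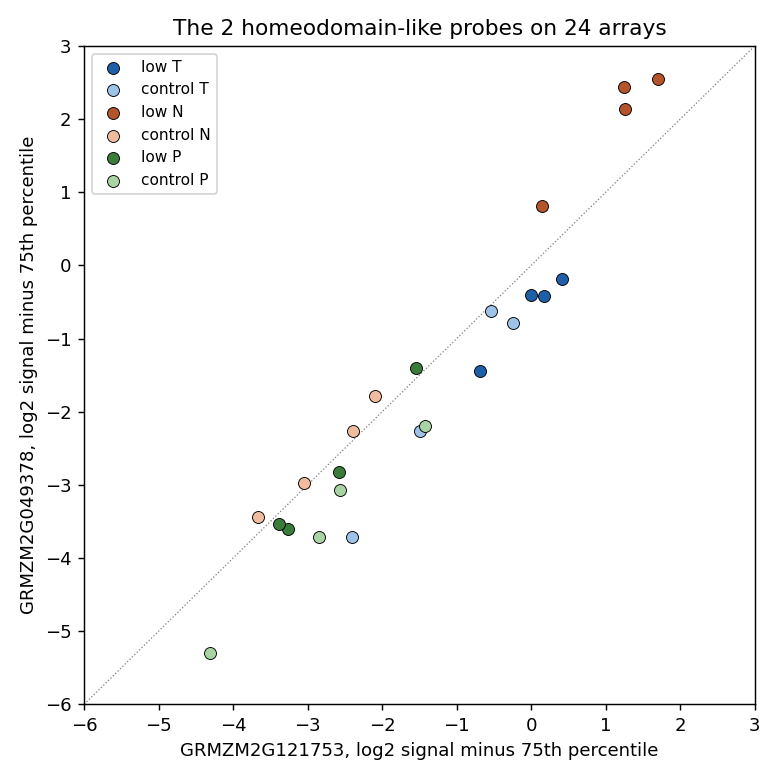
Level of GRMZM2G049378 (y axis) against GRMZM2G121753 (x axis) on the 24 arrays, both as log2 signal minus the 75th percentile of the array, coloured by group. The dotted line marks equal values, which are not equal transcript levels because the probes differ. The arrays follow 1 band, with the low N arrays at its upper end.

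The 2 homeodomain-like probes varied together also within groups. Across the 24 arrays their deviations from the group means had a correlation of 0.98, as a description of these arrays. After the mean of each experiment was taken off, r was 0.988, and each was the probe most like the other of 31185 compared. The low N arrays, which chose both genes, contribute to that r and that place, and to the other correlations over the 24 arrays given below. The sequences of the probes were not used here, so how far the 2 probes detect each other's transcript was not tested. The next most similar probe for both was a pentatricopeptide repeat protein of the E+ subgroup (OptiV1S33230, r = 0.943 with GRMZM2G049378 and 0.947 with GRMZM2G121753, and 0.615 and 0.781 without the centring), a family that acts on RNA in organelles. The third was a GrpE-type chaperone (OptiV1C04321, r = 0.929) for GRMZM2G049378 and an unknown gene, GRMZM2G090266 (r = 0.928), for GRMZM2G121753.

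For the starch-binding protein the 3 most similar probes were named sulfolipid biosynthesis (OptiV1S17969, r = 0.971), haloacid dehalogenase-like hydrolase (OptiV1S34274, r = 0.970) and purple acid phosphatase 3 (OptiV1C10994, r = 0.969). Sulfolipids can stand in for membrane phospholipids when phosphate is short, and purple acid phosphatases release phosphate from organic compounds. Their low N changes were -4.61, -4.05 and -4.16, their low T changes -4.26, -3.48 and -3.24 and their low P changes 0.73, 0.53 and 0.83. The correlations run over the 24 arrays, which share their groups, and low N, which chose the member, contributes to each of them.

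The probe most like the peroxidase was a member of the lipid-transfer protein family, GRMZM2G046750 (OptiV1S31825, r = 0.993), with changes of 5.54 in low T, 3.52 in low N and 2.57 in low P leaves. An unknown gene, GRMZM2G130454 (r = 0.966), and a transporter of the ABC-2 type, GRMZM2G054332 (r = 0.965), followed. For GRMZM2G165914 the nearest probe was annotated as uroporphyrin III methyltransferase (OptiV1C17652, r = 0.95), which in plants makes a precursor of the sirohaem of nitrite reductase. That probe changed by -3.15 in low N, -3.96 in low P and -0.43 in low T leaves. Without the centring its r with GRMZM2G165914 was 0.684, since the levels of the experiments differ. A GDSL-like lipase (OptiV1C06941, r = 0.937, but 0.244 without the centring) and a probe without a gene model, OptiV1N39995 (r = 0.937), came next.

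**Figure D4:**
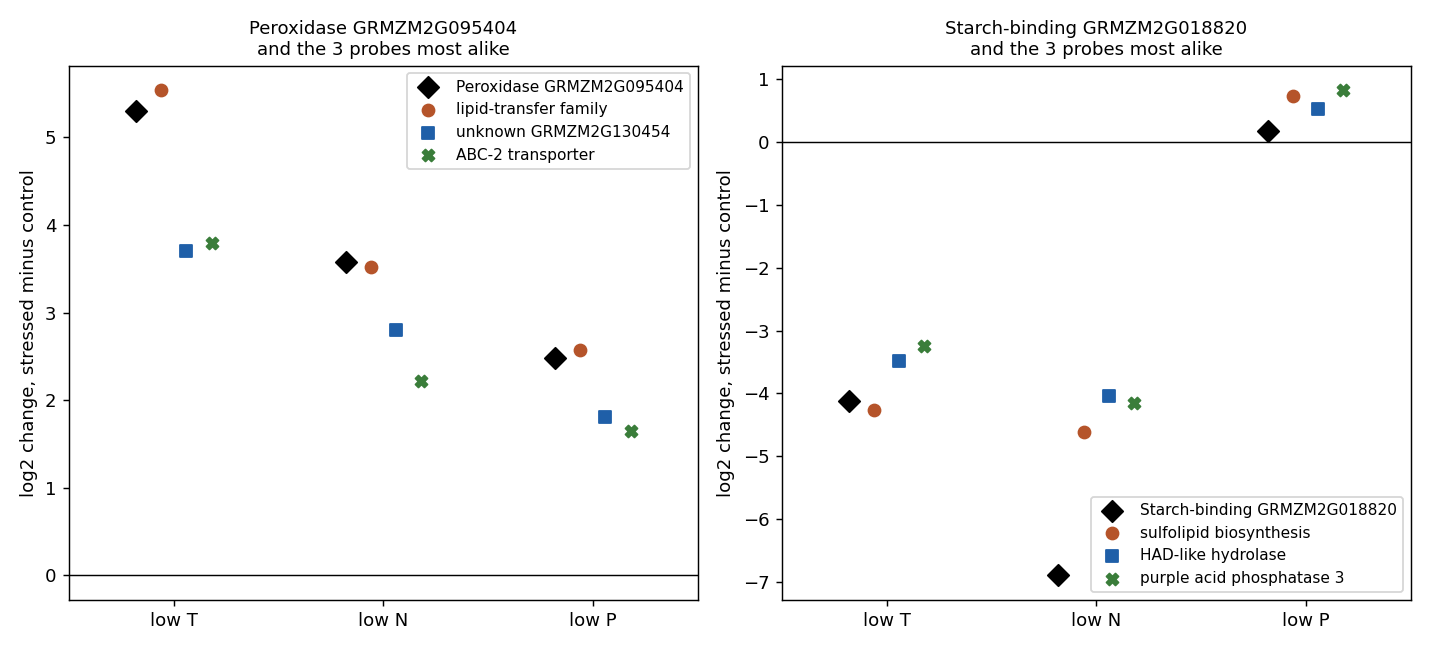
Log2 change (y axis, stressed minus control) in the 3 stresses (x axis) of the peroxidase (left) and the starch-binding protein (right), each with the 3 probes most like it over the 24 arrays. The 4 probes on the right lie between -3.24 and -6.90 in low T and low N leaves and between 0.18 and 0.83 in low P leaves.

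The probes just outside the choice are close in size. Among probes called in low N leaves, well above background and not saturated on all 8 arrays and without overlap of the groups, the 3 highest changes were those of the 2 homeodomain-like genes and the peroxidase (3.58), and the fourth was the lipid-transfer family gene GRMZM2G046750 (3.52). The 2 lowest were those of the starch-binding protein and GRMZM2G165914 (-4.97), followed by a probe with no name in the tables used here, OptiV1S26565 (-4.71), and by the sulfolipid biosynthesis probe (-4.61). Without those conditions, the members ranked 1, 6 and 10 from the top and 4 and 15 from the bottom of 31507.

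Most starch metabolism genes were not called in any of the stresses. Of 28 starch metabolism probes, 3 were higher and 2 lower in low T leaves, beside 7.25% and 7.11% of all probes. In low N leaves 0 were higher and 2 lower, beside 2.68% and 3.14%, and in low P leaves 2 were higher and 2 lower, beside 8.22% and 3.01%. These few calls are near the shares over all probes and are no result about starch genes. The medians were -0.13 in low T, -0.36 in low N and -0.42 in low P leaves, beside -0.07, -0.04 and 0.03 over all tested probes. The lowest in low N leaves was a chloroplast beta-amylase, OptiV1C10255 (-1.69 ± 0.29, adjusted p = 0.0103), an enzyme that frees maltose from starch, and the other was beta-amylase OptiV1C05180, just past the 2-fold limit (adjusted p = 0.0252). In low T leaves the chloroplast beta-amylase OptiV1S28095 (3.68) and starch branching enzyme III (1.49) had the highest changes among those called. OptiV1C05180 (-2.40) and a small subunit of ADP-glucose pyrophosphorylase, OptiV1C13983 (-2.38), which makes the glucose donor for starch, had the lowest. In low P leaves OptiV1C13983 was higher (1.50), as was beta-amylase OptiV1C02764 (5.44), and OptiV1C10255 (-1.27) and starch synthase IV (-1.11) were lower.

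Nitrate transport and reduction genes mostly fell in low N leaves. Of 14 probes, 10 were lower and 0 higher in low N leaves, beside 3.14% lower and 2.68% higher of all probes. The list includes the uroporphyrin III methyltransferase probe OptiV1C17652, named above as nearest to GRMZM2G165914. It is neither a transporter nor a reductase, and it counts among the lower probes in low N (-3.15) and low P leaves (-3.96). In low T leaves 4 were lower and 0 higher, beside 7.11% and 7.25%, and in low P leaves 8 were lower and 1 higher, beside 3.01% and 8.22%. The medians were -0.68 in low T, -1.76 in low N and -1.18 in low P leaves, beside -0.07, -0.04 and 0.03 over all tested probes. The lowest were 2 nitrate reductase probes in low N leaves, OptiV1S20079 (-4.18 ± 0.19, adjusted p = 7.16e-05) and OptiV1C11097 (-4.12 ± 0.15, adjusted p = 2.32e-05). The probe that rose in low P leaves was a low affinity nitrate transporter, OptiV1S26259 (4.23 ± 0.10, adjusted p = 1.09e-06).

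The peroxidase and homeodomain-like lists were chosen in the study on these arrays and are no independent evidence of direction. Of the 10 low N peroxidase probes, which include GRMZM2G095404 and 3 probes of 1 locus, 4 were higher and 6 lower in low N leaves, and 2 were higher and 1 lower in low T and again in low P leaves. Over all probes, 7.25% were higher and 7.11% lower in low T leaves, 2.68% and 3.14% in low N leaves, and 8.22% and 3.01% in low P leaves, which also stand beside the counts that follow. Peroxidase GRMZM2G089982 changed by 2.54 in low T, -4.80 in low N and -3.49 in low P leaves, and was called in all 3. Of the 8 probes with the chaperone, homeodomain-like name, only the 2 described above were called in low N leaves, whereas the other 6 were all called lower in low T leaves (-1.41 to -2.09) and 4 of them lower in low P leaves (-1.02 to -2.57).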

How the data were processed

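The deposited scanner output holds intensity values from which the authors' Feature Extraction run had already removed background and within-array trends. The authors also deposited a table of log2 values made in GeneSpring from the same intensities, which is scaled to the 75th percentile and set to 0 at the median of each probe. It served as an alternative. From the intensities, log2 values minus the 75th percentile of the array were taken, outlier spots were dropped, but not saturated ones. Tested probes (31507 of 41780) were those called well above background in every replicate of 1 or more groups. Changes were fitted per experiment with limma 3.58.1 in R 4.3.3 (lmFit and eBayes, Benjamini-Hochberg adjustment over all tested probes), and the low P and low T changes were compared in 1 fit over those groups. The fits were tested on simulated data with independent normal noise for each probe. That simulation held no slide effects, pairing or background limit, so it says nothing about those. The number of arrays limits the precision.

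The genes and gene lists were chosen with earlier results of these data known. Named in full were the 5 genes, the 3 probes most like each by Pearson's r over 24 arrays after taking off the mean of each experiment, and the highest and lowest called probes of each list. Replicate numbers come from the sample titles. Between same-numbered samples, deviations from the group means had correlations of 0.189 to 0.424 in low T, 0.176 to 0.363 in low N and -0.104 to 0.045 in low P. Between differently numbered samples they were -0.407 to 0.414 in low T, -0.397 to 0.347 in low N and -0.166 to 0.287 in low P. The ranges overlap, so these values alone do not establish a pairing by replicate number. Same-numbered samples also shared a slide in low T, but in low N only those numbered 3 did. Alternatives were quantile normalization, scaling to 10 spike-in probes, normexp background correction (offset 50, on the median signals), no background filter, the deposited table, the replicate number as a block, the slide as a block (not possible for low P), 1 fit over 24 arrays, and leaving out replicates. Leaving out single arrays was added after seeing the data. Gene names come from the study's tables and RefSeq (Zm-B73-REFERENCE-NAM-5.0). No coordinates or sequences were used here.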

Additional observations from a re-analysis of the deposited data

Results flagged for a closer look

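The starch-binding protein GRMZM2G018820 is listed for a difference between stresses. The low P change minus the low T change was 4.30 (adjusted p = 7.31e-05). Relative to the control means, all 4 low T samples were lower (change -4.12) and all 4 low P samples were higher (change 0.18, not called). All 4 low N samples were lower as well, and the difference between the low N and the low P change was not tested, because the low N change chose the gene.

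For GRMZM2G165914 the low P change minus the low T change was -4.48 (adjusted p = 0.0196), with 0 of 4 low T, 2 of 4 control T and 1 of 4 low P arrays well above background. No sample of the 30 groups of 4 values stood apart from the others of its group by Dixon's 95% criterion.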

How the results depend on the processing

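Over the alternatives other than leaving out replicates, 132 of 147 values kept their direction and their side of the limits or, for low N, stayed within 1 SD. Part of that count was fixed in advance, so it is no measure of robustness. The low N change is the same by construction without the background filter, with the replicate block and in 1 fit over all arrays. The deposited table holds the same intensities with the same scaling, and the 147 include counts of called genes. The low T decrease of the starch-binding protein, the low T increase of the peroxidase and the low P decrease of GRMZM2G165914 passed in all of these alternatives. With normexp the low P peroxidase change was 0.72 (no longer called), the low P changes of GRMZM2G049378 (-0.17) and GRMZM2G121753 (-0.47) turned round without being called, the low N changes of the peroxidase (2.21) and GRMZM2G165914 (-4.02) were smaller, and the low P minus low T difference of the peroxidase (-2.81) passed. The low T changes with normexp were 0.82 for GRMZM2G049378 and -0.66 for GRMZM2G165914, neither of them called. Quantile normalization gave -0.15 for GRMZM2G121753 in low P, and -3.27, which passed, for the peroxidase difference. Spike-in scaling raised the median change of all probes to 0.38 in low T, 0.49 in low N and 0.25 in low P leaves. With it the low T change of GRMZM2G121753 (1.59) was called, and the low N changes were 4.11 for the peroxidase and -4.44 for GRMZM2G165914. With the slide as a block the low T changes of GRMZM2G121753 (1.15) and GRMZM2G165914 (-2.58) were called, the second also in 1 fit over all arrays (-2.58). With the replicate number as a block the peroxidase difference (-2.82) passed, and no other call on the 5 genes changed in the paired fits. The causes were not tested.

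When replicates were left out, the low T change of GRMZM2G165914 ranged from -3.68 to -1.80 and was called without replicate 2 of both groups or of control T. The low P change of GRMZM2G121753 ranged from -0.45 to 0.55 and that of GRMZM2G049378 from 0.15 (without replicate 4 of both groups) to 1.19. The low P minus low T difference ranged from -1.08 to 0.12 for GRMZM2G049378, where leaving out control T replicate 4 turned it round, from -5.86 to -3.12 for GRMZM2G165914 and from -3.40 to -1.95 for the peroxidase, which passed in 4 of 20 such fits.

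Counts over all probes moved as well. In low T leaves 2284 probes were higher and 2241 lower, against 5212 and 1078 with spike-in scaling, and normexp called 1633 in place of 4525. In low N leaves 845 were higher and 988 lower, against 1429 and 237 with spike-in scaling, and normexp called 1184 and the slide block 3362 in place of 1833, and leaving out replicates gave 623 to 1714. In low P leaves 2591 were higher and 949 lower, against 4058 and 612 with spike-in scaling and 2065 and 1509 with quantile normalization, and normexp called 1610 in place of 3540. The low P minus low T difference passed for 13267 probes (7215 positive, 6052 negative), against 7559 (3118 and 4441) with spike-in scaling, 5358 with normexp, and 5760 positive and 7556 negative with quantile normalization.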
